A study of Drosophila melanogaster with 18 samples.

Results

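Transcripts of 8 nuclear genes for mitochondrial chaperones, prohibitins and the Clp protease were followed in flies fed RU486 (mifepristone), the drug that switches on GeneSwitch Gal4. The genes were *Hsp60*, *Hsc70-5*, *Trap1*, *Roe1*, *l(2)37Cc*, *Phb2*, *CG4538* and *CG5045*. They were chosen by symbol as a readout of protein folding stress in mitochondria, and all 8 were found among the 15682 gene symbols counted. *Phb2* stands in the count tables under an older symbol, and in the current annotation *l(2)37Cc* is *Phb1*, *CG4538* is *ClpX*, *CG5045* is *ClpP* and *Hsp60* is *Hsp60A*. No member was lost to the filter on low counts in any comparison, and the smallest count of any member in any library was 957 reads, for *Roe1*.

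Messenger RNA was sequenced from male thoraces of *Act88F-GS-Gal4* flies, male thoraces of *w1118* flies and male heads of *elav-GS-Gal4* flies. In each stock 3 samples came from flies kept for 10 days on food with 100 µM RU486 dissolved in ethanol, and 3 from control flies kept as long on food with ethanol alone (0 µM). In the first stock the *Act88F* promoter drives GeneSwitch in flight muscle, and the stock is a single line, made by injecting *yw* embryos and selected for minimal leaky expression. In *elav-GS-Gal4* flies the neuronal *elav* promoter drives GeneSwitch, while *w1118* flies carry no GeneSwitch. The labels name no target transgene in any group. No sequencing run or date is labelled, and heads came from 1 stock only, so in a comparison between stocks the stock cannot be told apart from the run or, for heads, from the tissue.

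Most mitochondrial proteins are made in the cytosol, threaded through the inner membrane and folded in the matrix. *Hsc70-5* encodes the matrix Hsp70 (mortalin), which pulls proteins in and starts their folding. *Roe1* encodes its GrpE-type nucleotide exchange factor, *Hsp60* the barrel-shaped chaperonin that completes folding, and *Trap1* the mitochondrial Hsp90. *l(2)37Cc* and *Phb2* encode the 2 prohibitins, which assemble into rings in the inner membrane. *CG4538* and *CG5045* encode the unfolding ATPase and the peptidase of the ClpXP protease, which degrades damaged matrix proteins. When misfolded proteins build up in mitochondria, many animals raise transcription of such chaperones and proteases, a programme called the mitochondrial unfolded protein response.

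The libraries held 34020840 to 96176923 reads counted on genes. Of the 7 flight muscle markers, 7 were detected in every library, and their summed level was 8248 to 17573 CPM (counts scaled to libraries of equal size, per 1000000 reads on genes) in thoraces against 2616 to 4594 in heads. Photoreceptor markers summed to 54208 CPM or more in every head library. RNA of reproductive organs was uneven. The 13 testis markers summed to 778 and 181 CPM in *elav-GS-Gal4* head control replicates 1 and 2 and to less than 1 CPM in the other 4 head libraries, while *w1118* thoraces had 372 to 734 CPM in controls and 19.3, 595 and 214 in RU486 replicates 1, 2 and 3. In *Act88F-GS-Gal4* thoraces these markers stayed at or below 2.17 CPM. *Act88F-GS-Gal4* control replicate 1 held 1651 CPM of photoreceptor markers, against 135 to 225 in the other 5 libraries of that stock. Some of the results resting on these libraries are given below with and without them.

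In *Act88F-GS-Gal4* thoraces, transcripts of 5 of the 8 genes fell by 42.8% to 66.5% after RU486 and those of 0 rose. The 5 were *Hsc70-5*, *Roe1*, *Trap1*, *CG4538* and *CG5045*. *Hsp60* and both prohibitin genes did not pass the test. Every gene was tested by edgeR's quasi-likelihood test with Benjamini-Hochberg adjustment over all 10600 genes tested, at a threshold of 0.05. By this test 19.9% of all genes tested were lower and 12.6% were higher. An unadjusted p under 0.05 was reached by 6 of the 8, all lower, and by 44% of all genes tested. DESeq2 and limma voom also called 5 lower and 0 higher. The median log2 fold change of the 8 was -0.88, beside 0.010 over all genes tested. The ranges of the 2 groups were apart, with RU486 lower, in 7 of the 8, the exception being *l(2)37Cc*, as they were for 27.4% of all genes tested. No member had ranges apart with RU486 higher, against 22.4% of all genes tested.

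The matrix Hsp70 and its exchange factor were both lower. *Hsc70-5* (chromosome 2R, 14252598 to 14256192 in BDGP6.54) stood at 986, 1021 and 1033 CPM in the 3 controls and at 477, 513 and 470 CPM after RU486. CPM values are scaled within a stock by TMM, a normalisation that assumes most genes to be unchanged between libraries. The controls lay close together (coefficient of variation 2.40%), and no RU486 sample came near them. The log2 fold change was -1.06 (SE 0.08, adjusted p = 0.000432 in edgeR). *Roe1* (chromosome 2R, 13554077 to 13555606) had 47.2, 45.9 and 45.7 CPM in controls and 25.7, 26.4 and 27.3 CPM after RU486. The 2 groups were tight and far apart, and the log2 fold change was -0.81 (SE 0.05, adjusted p = 0.000298).

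*Trap1* (chromosome 2R, 6633647 to 6636262), the mitochondrial Hsp90, went from 248, 262 and 244 CPM to 117, 114 and 104 CPM. All 3 RU486 samples lay far below the lowest control, with a log2 fold change of -1.18 (SE 0.08, adjusted p = 0.000261 in edgeR). The chaperonin gene *Hsp60* (chromosome X, 11108482 to 11112308) behaved otherwise. It had 353, 306 and 313 CPM in controls and 269, 289 and 280 CPM after RU486. The groups did not overlap, but the gap between them was small beside the spread of the controls. The log2 fold change of -0.21 (95% interval -0.42 to -0.01) had an adjusted p = 0.102 in edgeR. By quantitative RT-PCR in muscle of this stock, the paper reports that *Hsp60* fell with rising doses of RU486.

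The Clp protease genes fell together. *CG4538* (chromosome 3R, 19897372 to 19903689), the ATPase subunit, had 513, 728 and 826 CPM in controls and 233, 242 and 217 CPM after RU486. The controls varied more than for any other member (coefficient of variation 23.3%), yet the lowest of them was above all RU486 samples, with a log2 fold change of -1.58 (SE 0.18, adjusted p = 0.00147 in edgeR). The lowest control was replicate 1, the library with photoreceptor RNA, and without it the log2 fold change of *CG4538* was -1.75 (adjusted p = 0.000509). Of the exonic length of *CG4538*, 11.1% (460 bases) is shared with exons of *CG4733* on the opposite strand and 25 bases with *Surf6* on its own strand, and the strand setting of the counting is not given in the sources used here, so these bases may carry reads of either gene. *CG5045* (chromosome 2L, 10356795 to 10358078), the peptidase subunit, had 96.4, 100.4 and 90.5 CPM in controls and 53.2, 50.8 and 43.6 CPM after RU486. Its groups were clearly apart, and the log2 fold change was -0.96 (SE 0.09, adjusted p = 0.000795).

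The prohibitin genes showed no such change. *l(2)37Cc* (chromosome 2L, 19121345 to 19123869) had 74.6, 72.8 and 68.9 CPM in controls and 72.0, 76.9 and 73.9 CPM after RU486. The groups overlapped, with a log2 fold change of 0.04 (95% interval -0.11 to 0.19, adjusted p = 0.629 in edgeR). *Phb2* (chromosome 2R, 18819467 to 18822250) had 126.9, 126.6 and 122 CPM in controls and 108, 119 and 117 CPM after RU486. Its log2 fold change of -0.13 (95% interval -0.29 to 0.03) had an adjusted p = 0.175, and it was 0.04 when libraries were scaled by total counts only. Its exons share 63 bases with *CG15097* on the opposite strand. The intervals of both genes exclude a fall as large as those of the Clp genes, *Trap1*, *Roe1* or *Hsc70-5*.

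**Figure D1:**
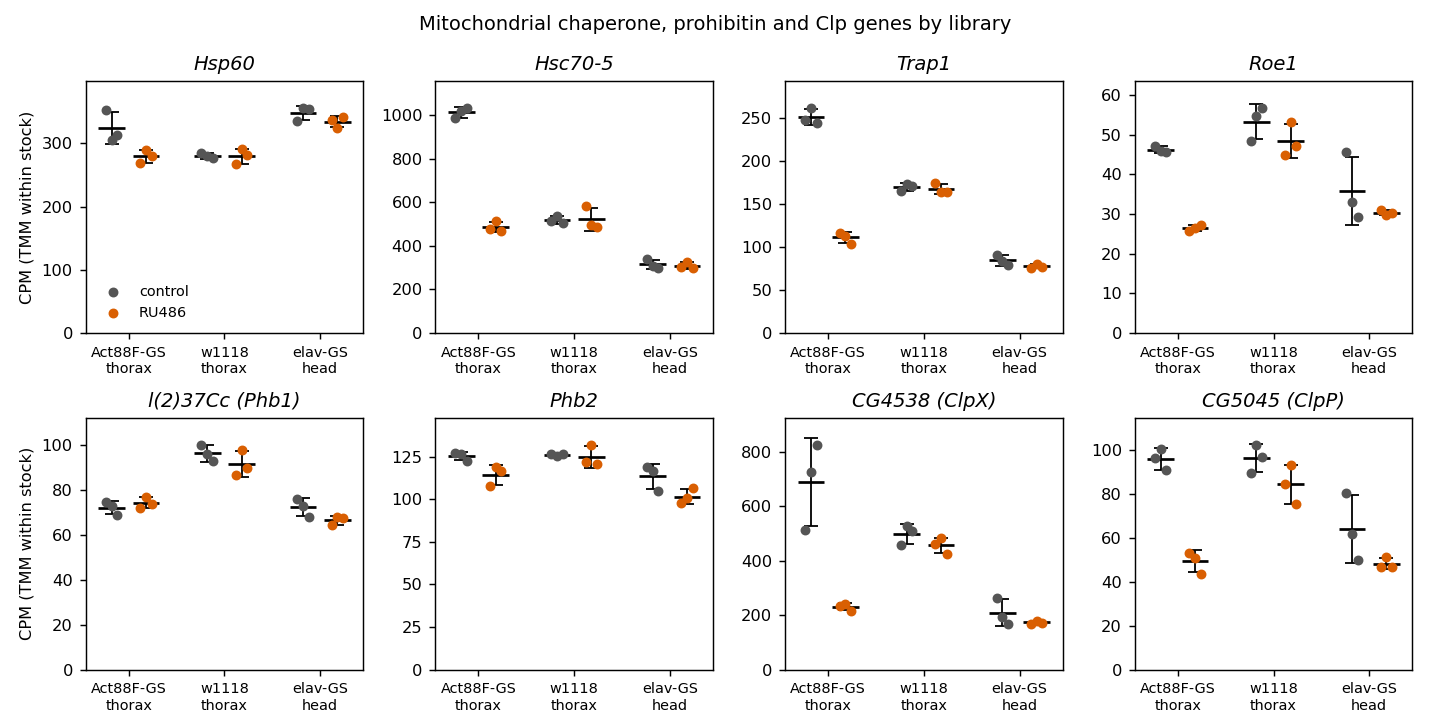
Level of each of the 8 genes in CPM (linear axis from 0) in every library, by stock and tissue, with controls in grey and RU486 in orange. Points are single libraries, bars the mean and error bars the SD of 3. In *Act88F-GS-Gal4* thoraces *Hsc70-5* lay at 986 to 1033 CPM in controls and at 470 to 513 CPM after RU486, while the points of *l(2)37Cc* overlapped.

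Summed over the 8 genes, the share of all counts was 0.236% to 0.259% in *Act88F-GS-Gal4* controls and 0.135% to 0.155% after RU486. In *w1118* thoraces it was 0.166% to 0.194% and in heads 0.111% to 0.132%, over both treatments. The *Act88F-GS-Gal4* controls thus stood above every other library, and their RU486 counterparts below every *w1118* library.

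Several whole-library measures moved with RU486 in *Act88F-GS-Gal4* thoraces. The 7 flight muscle markers, none of them at 0, summed to 17192 to 17573 CPM in controls and to 8834, 9362 and 14025 CPM after RU486. In bulk samples, fewer cells of a type and less RNA per cell cannot be told apart. RU486 replicate 3, which kept the most muscle-marker RNA of the 3, had the lowest level of *Hsc70-5*, *Trap1*, *CG4538* and *CG5045* among them. *Roe1* went the other way and was highest there, at 27.3 CPM against 25.7 and 26.4 CPM in replicates 1 and 2. Without RU486 replicate 3, the log2 fold change was -1.02 for *Hsc70-5*, -1.11 for *Trap1*, -1.52 for *CG4538* and -0.87 for *CG5045*. The 7 midgut markers summed to 12556 to 14021 CPM in controls and 15813 to 19050 CPM after RU486, and the 5 fat body markers to 5177 to 6829 and 6033 to 9678 CPM, all of them detected. Reads that fell on no annotated gene made up 12.8% to 15.2% in controls and 9.50% to 10.2% after RU486. The part of these measures in the fall of the 5 genes was not tested.

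In *w1118* thoraces, none of the 8 genes was called after RU486, and log2 fold changes ran from -0.19 to 0.01. At an adjusted p under 0.05, edgeR called 0% of all 12980 genes tested in either direction, and 9.2% of them had an unadjusted p under 0.05. Of the 8 members 0 had an unadjusted p under 0.05, and DESeq2 and limma voom called 0 of them, although DESeq2 called 95 genes lower and 195 higher over all. No member had ranges of the 2 groups apart, where 10.1% of all genes tested had RU486 lower and 9.66% had it higher. *Hsc70-5*, the matrix Hsp70 gene, had 514, 539 and 506 CPM in controls and 582, 496 and 488 CPM after RU486. These values overlapped, with a log2 fold change of 0.01 (95% interval -0.20 to 0.21) whose sign turned with 1 of the other scalings. *Trap1* at -0.02 (95% interval -0.14 to 0.09) and *CG4538* at -0.13 (95% interval -0.32 to 0.07) had intervals that leave out changes of the size seen in *Act88F-GS-Gal4*. The largest difference was that of *CG5045*, with 89.3, 102 and 96.6 CPM in controls and 84.1, 93.2 and 75.3 CPM after RU486, a log2 fold change of -0.19 (95% interval -0.43 to 0.05, adjusted p = 0.572). Scaled within the stock, RU486 replicate 1, the library with little testis RNA, gave the highest *Hsc70-5* and *Trap1* values of the 6. Its values of *l(2)37Cc*, *Hsp60* and *Roe1* were the lowest. With all 18 libraries scaled together, that library was still highest for *Hsc70-5* and *Trap1* but not lowest for *l(2)37Cc*, *Hsp60* or *Roe1*. Without it 0 of the 8 genes were called, and the log2 fold change was -0.08 for *Hsc70-5*, -0.03 for *l(2)37Cc* and 0.03 for *Hsp60*.

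In *elav-GS-Gal4* heads, 0 of the 8 genes passed the test, and their log2 fold changes ran from -0.41 for *CG5045* to -0.03 for *Hsc70-5*. Of the 10653 genes tested, edgeR called 0.779% lower and 5% higher. Of the members 0 had an unadjusted p under 0.05, against 25% of all genes tested, and DESeq2 and limma voom called 0. Among the 8, control and RU486 samples were apart only for *l(2)37Cc*, with all RU486 samples lower, as was so for 10.8% of all genes tested (18.7% with all RU486 samples higher). It had 76.1, 73.0 and 68.1 CPM in controls and 64.3, 67.8 and 67.5 CPM after RU486, a log2 fold change of -0.12 (95% interval -0.26 to 0.02, adjusted p = 0.248 in edgeR).

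Head control replicate 1 held the most reproductive organ RNA of the 3 controls and replicate 3 the least. The 7 midgut markers ran in the same order, at 1625, 715 and 231 CPM in control replicates 1, 2 and 3. After RU486 they summed to 66.8 to 103 CPM. The part of testis or midgut RNA in the levels below was not tested. In CPM scaled within the stock, 7 of the 8 genes, all but *Hsp60*, were highest in replicate 1 and lowest in replicate 3. With all 18 libraries scaled together, *Roe1*, *CG4538* and *CG5045* kept this order. *Hsp60*, *Hsc70-5*, *Trap1*, *l(2)37Cc* and *Phb2* were then lowest in replicate 1. *Hsc70-5* had 92.1, 98.8 and 105.8 CPM per kilobase of exon in replicates 1, 2 and 3, and *Hsp60* had 107, 134 and 147. Scaled within the stock, the spread was widest for *CG5045*, *CG4538* and *Roe1* (coefficients of variation 24.1%, 23.7% and 23.8%). *CG5045* had 80.3, 61.5 and 49.8 CPM in control replicates 1, 2 and 3, whose testis markers summed to 778, 181 and 0.446 CPM. *CG4538* had 265, 194 and 169 CPM in the same order, and *Roe1* 45.6, 33.0 and 29.2 CPM. After RU486, where testis markers summed to 0.362 to 0.376 CPM with up to 9 of the 13 at 0, *CG5045* had 46.8, 51.4 and 46.5 CPM, *CG4538* had 169, 180 and 172 CPM and *Roe1* had 31.0, 29.9 and 30.2 CPM. Control replicate 3 therefore lay among the RU486 libraries for *CG4538* and *CG5045* and just below them for *Roe1*. *Hsc70-5* had 339, 309 and 301 CPM in control replicates 1, 2 and 3, *Trap1* 90.9, 84.2 and 78.6 CPM and *Phb2* 119, 117 and 105 CPM, over a narrower range, as had *l(2)37Cc*. *Hsp60* had 335, 356 and 354 CPM in the same order and 324 to 342 CPM after RU486. In a fit with control replicate 3 as the only head control, added after the values were seen and assuming that this lone sample varies like the RU486 group, the log2 fold changes were 0.03 for *CG4538*, -0.05 for *CG5045* and 0.05 for *Roe1*, and 0 of the 8 genes were called.

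**Figure D2:**
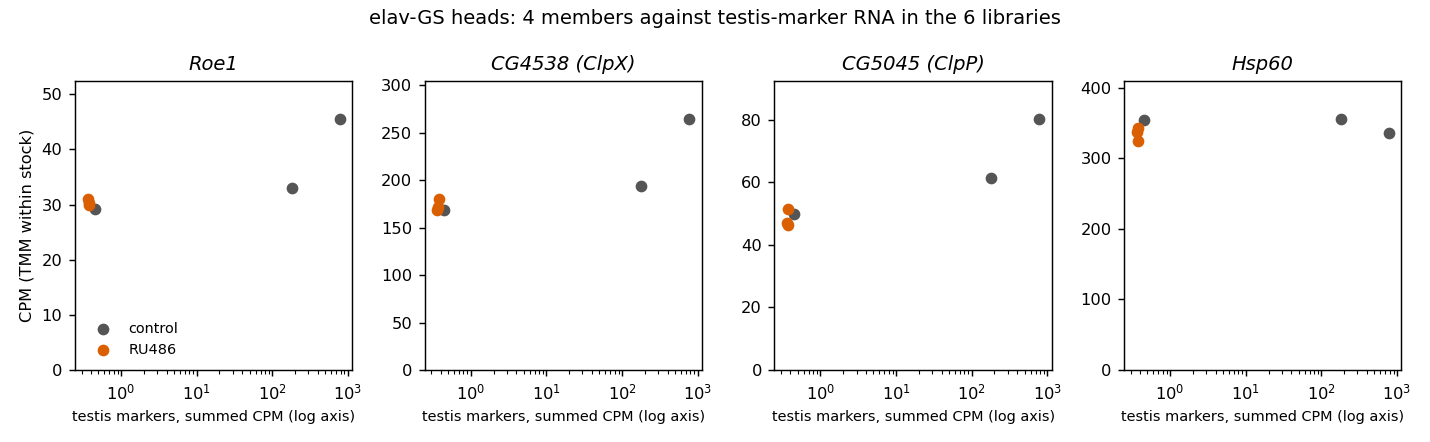
Level of *Roe1*, *CG4538*, *CG5045* and *Hsp60* in the 6 *elav-GS-Gal4* head libraries (CPM, linear axis from 0) against the summed CPM of 13 testis markers (log axis), with controls in grey and RU486 in orange. Control replicates 1 and 2, at 778 and 181 CPM of testis markers, hold the 2 highest values of *Roe1*, *CG4538* and *CG5045*. They also hold the most midgut-marker RNA, at 1625 and 715 CPM. *Hsp60* was 335 CPM in control replicate 1 and 354 in control replicate 3.

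Whether the response differed between stocks was tested directly, as the change after RU486 in one stock minus that in another. Against *w1118* thoraces, the change in *Act88F-GS-Gal4* thoraces was lower for 5 of the 8 genes and higher for 0, where 11.9% of the 13019 genes tested were lower and 4.29% higher. The difference in log2 fold change was -1.08 for *Hsc70-5* (SE 0.12, adjusted p = 0.000294 in edgeR) and -1.16 for *Trap1* (SE 0.09, adjusted p = 8.19e-05). For the Clp genes it was -1.46 in *CG4538* (SE 0.22, adjusted p = 0.00164) and -0.78 in *CG5045* (SE 0.14, adjusted p = 0.0046), and for *Roe1* it was -0.68 (SE 0.11, adjusted p = 0.00233). *Hsp60*, at -0.22 (adjusted p = 0.107), *Phb2* at -0.13 (its sign turned with 1 of the other scalings) and *l(2)37Cc* at 0.10 did not pass.

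Against *elav-GS-Gal4* heads, the same 5 genes had a lower change in *Act88F-GS-Gal4* thoraces and 0 had a higher one, where 17.3% of the 11388 genes tested were lower and 11.3% higher. The difference was -1.05 for *Hsc70-5*, -1.08 for *Trap1*, -1.34 for *CG4538* and -0.59 for *Roe1* (largest adjusted p of the 4 in edgeR, 0.0191). For *CG5045* it was -0.58 (adjusted p = 0.0376), a call that was lost when any 1 of 9 of the 12 libraries was left out (adjusted p 0.0506 to 0.0781), and that held only without head control replicate 1, head control replicate 3 or *Act88F-GS-Gal4* RU486 replicate 1. With total counts neither *CG5045* (-0.35) nor *Roe1* (-0.36, adjusted p = 0.148) was called, nor was either with the upper quartile. With control replicate 3 as the only head control the difference was -0.84 for *CG5045* and -0.79 for *Roe1*, and 5 genes were again lower. Both comparisons use the same *Act88F-GS-Gal4* samples. *Hsp60*, *Phb2* and *l(2)37Cc* stood at -0.17, 0.01 and 0.14 and were not called, and the sign of *Hsp60* turned with 1 of the other scalings.

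**Figure D3:**
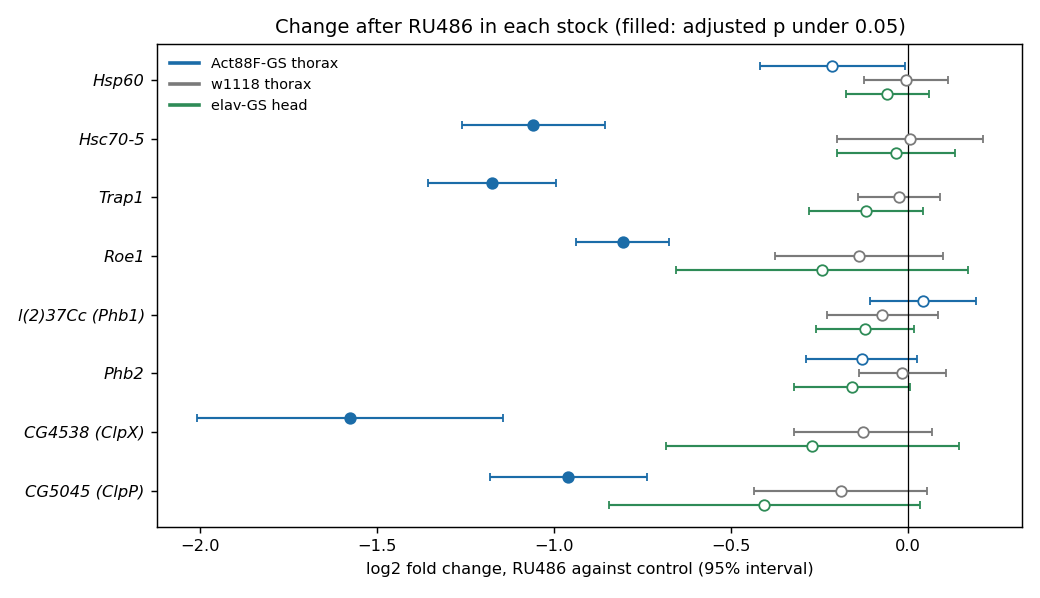
Log2 fold change of RU486 against control for the 8 genes, with 95% intervals, in *Act88F-GS-Gal4* thoraces (blue), *w1118* thoraces (grey) and *elav-GS-Gal4* heads (green). Filled points had an adjusted p under 0.05 in edgeR. The 5 filled points, from -1.58 for *CG4538* to -0.81 for *Roe1*, are all of *Act88F-GS-Gal4* thoraces.

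Levels before the drug also differed by stock. Between control thoraces, 4 genes were higher in *Act88F-GS-Gal4* than in *w1118* flies and 1 was lower, where 23.5% of all genes tested were higher and 38% lower. *Hsc70-5* was higher by 1.10 on the log2 scale (adjusted p = 3.63e-05 in edgeR), *Trap1* by 0.70, *CG4538* by 0.60 and *Hsp60* by 0.35, while *l(2)37Cc* was at -0.28. With libraries scaled by total counts *Hsp60* was at 0.11 (adjusted p = 0.286) and *CG4538* at 0.37 (adjusted p = 0.0953), neither of them called. The call of *CG4538* was also lost without *Act88F-GS-Gal4* control replicate 2 or 3 or without *w1118* control replicate 1 (highest adjusted p = 0.0658). Head controls were lower than *Act88F-GS-Gal4* thorax controls for 6 genes, where 29.4% of all genes tested were lower and 35.5% higher, with *CG4538* at -1.88, *Hsc70-5* at -1.84 and *Trap1* at -1.73. *Hsp60* was at -0.06 (adjusted p = 0.548) and *l(2)37Cc* at -0.16 (adjusted p = 0.0977) in that comparison, both with the other sign under 1 of the other scalings. Among the 6, the call of *Roe1* (-0.52) was lost without any 1 of the *Act88F-GS-Gal4* controls (highest adjusted p = 0.124) and that of *CG5045* (-0.74) without *Act88F-GS-Gal4* control replicate 1 or 2 (highest adjusted p = 0.0649). Against *w1118* thorax controls, 4 genes were lower in head controls and 1, *Hsp60*, was higher, at 0.45, where 18.4% of all genes tested were lower and 32.8% higher. The call of *Hsp60* was lost without head control replicate 3 (adjusted p = 0.222), and so was that of *l(2)37Cc* (-0.28, adjusted p = 0.128 without it). Calls were also gained. Of 6 fits without 1 library, *CG5045* (-0.46) was called lower in 2 and *Roe1* (-0.44) in 1, and with the upper quartile 7 members were lower. Head control replicates 1 and 2 and all *w1118* controls held testis RNA. Flight muscle markers summed to 17192 to 17573 CPM in *Act88F-GS-Gal4* controls, 8248 to 9320 in *w1118* controls and 2616 to 3063 in head controls. Midgut markers summed to 12556 to 14021 CPM in *Act88F-GS-Gal4* and 3060 to 6229 in *w1118* controls. Fat body markers summed to 5177 to 6829 and 2236 to 2635 CPM in the same order. These sums were scaled within a stock, and the part of such RNA in control levels was not tested.

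Per kilobase of exon, with all 18 libraries scaled together, the order of the 8 genes differed between groups. In *Act88F-GS-Gal4* controls *Hsc70-5* led with 375 ± 6.71 CPM per kb (SD, n = 3), followed by *CG4538* with 179.9 ± 40.9 and *Hsp60* with 141 ± 12.3, whose ranges overlapped. *Trap1* (109.8 ± 3.61), *CG5045* (88.2 ± 4.47), *Phb2* (71.8 ± 1.68), *Roe1* (47.0 ± 1.18) and *l(2)37Cc* (36.8 ± 1.65) came next, each range clear of its neighbours. After RU486, *Hsc70-5* (188 ± 10.3) was still first but *Hsp60* (127.4 ± 4.56) was second, ahead of *Phb2* (68.5 ± 3.22). *CG4538* (63.0 ± 4.15) overlapped with *Phb2*, *Trap1* (50.8 ± 3.72) with *CG5045* (47.4 ± 5.43), and *Roe1* (28.1 ± 0.462) was last, below *l(2)37Cc* (39.6 ± 1.41).

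In *w1118* controls the levels per kilobase were 166 ± 6.72 for *Hsc70-5*, 112 ± 11.03 for *CG4538* and 105 ± 2.34 for *Hsp60*, with the last 2 overlapping. *CG5045* had 76.2 ± 6.85 CPM per kb, *Trap1* 64.0 ± 3.64 and *Phb2* 62.2 ± 2.39 (the last 2 again overlapping), while *Roe1* with 46.7 ± 5.41 and *l(2)37Cc* with 42.3 ± 0.306 also overlapped. Head controls were led by *Hsp60*, with 129.3 ± 20.2 CPM per kb, above *Hsc70-5* with 98.9 ± 6.85. In heads *Phb2* (54.9 ± 4.38), *CG5045* (48.9 ± 5.30) and *CG4538* (45.5 ± 4.61) were followed by *l(2)37Cc* (31.3 ± 2.43), *Trap1* (31.2 ± 1.84) and *Roe1* (30.4 ± 3.11), with overlap within each of these 2 sets of 3.

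Because partners did not move alike, their ratio changed within *Act88F-GS-Gal4* thoraces. The ratio of *Hsp60* to *Hsc70-5*, in CPM per kb, was 0.422, 0.353 and 0.357 in controls and 0.666, 0.665 and 0.701 after RU486. It did not overlap between the groups, and after RU486 it lay near that of *w1118* thoraces, which was 0.636 ± 0.022 (SD, n = 3) in controls and 0.637 ± 0.084 after RU486. In heads it was 1.30 ± 0.12 and 1.28 ± 0.10. For the Clp subunits, *CG4538* over *CG5045* was 1.51, 2.06 and 2.59 in controls and 1.24, 1.35 and 1.42 after RU486. The control values spread widely but stayed above the others. In heads this ratio moved the other way, from 0.931 ± 0.033 to 1.02 ± 0.027, also without overlap. In *w1118* thoraces it was 1.47 ± 0.020 and 1.54 ± 0.069, with overlap. In *Act88F-GS-Gal4* thoraces the prohibitin ratio, *l(2)37Cc* over *Phb2*, went from 0.513 ± 0.011 to 0.579 ± 0.015 without overlap, the smallest of the 3 shifts there. Its groups overlapped in *w1118* thoraces and in heads. With 3 samples a side the smallest p of an exact two-sided permutation test is 0.1, so no test of the ratios was made.

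**Figure D4:**
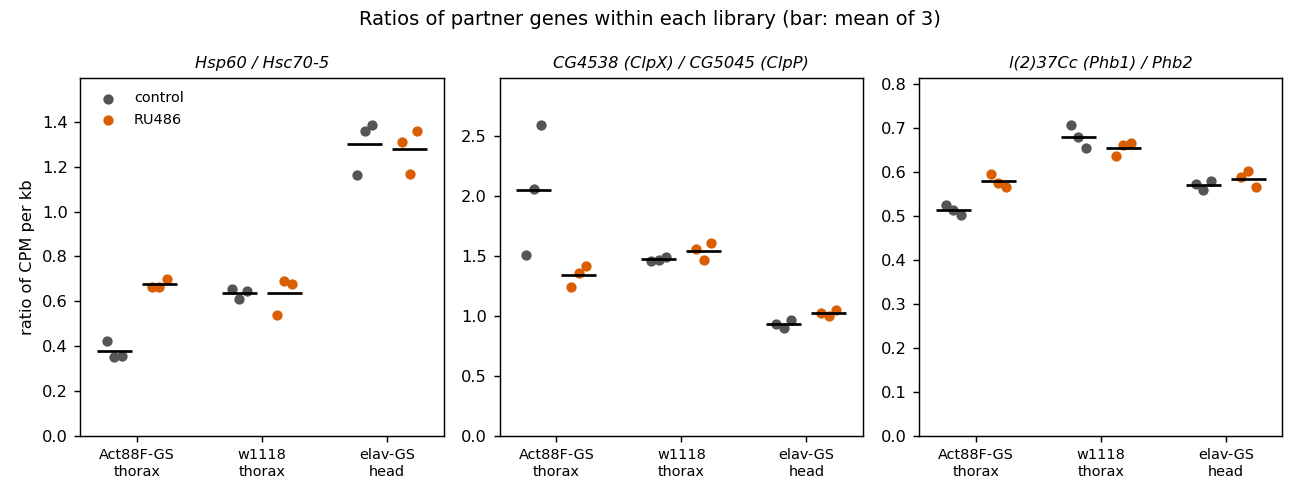
Ratio of partner genes within each library (CPM per kb over CPM per kb, linear axis from 0) by stock and tissue, with controls in grey, RU486 in orange and bars at the mean of 3. The ratio of *Hsp60* to *Hsc70-5* lay at 0.353 to 0.422 in *Act88F-GS-Gal4* controls and at 0.665 to 0.701 after RU486.

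Other genes of mitochondrial protein quality control were read from lists chosen by function. Of 10 other mitochondrial chaperones listed, 9 were found among the gene symbols counted. In *Act88F-GS-Gal4* thoraces 5 of these passed the filter, and 3 were lower and 0 higher. They were *CG7394* at -1.35, *blp*, a subunit of the motor that hands proteins to matrix Hsp70, at -1.22, and *CG11267*, the co-chaperonin of Hsp60, at -0.49 (adjusted p = 0.00386 in edgeR). *CG11267* had 60.1, 53.9 and 56.5 CPM in controls and 37.9, 42.7 and 40.5 CPM after RU486, so that it fell while *Hsp60* was not called. The J-domain partner gene *l(2)tid* was at -0.81 and was not called (adjusted p = 0.075). It had 128.5, 128.5 and 125.7 CPM in controls and 47.7, 62.5 and 108.4 CPM after RU486, without overlap but with RU486 samples far from each other.

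The other mitochondrial protease genes were lower throughout. All 11 of the 11 listed proteases other than the Clp subunits were lower in *Act88F-GS-Gal4* thoraces, with a median log2 fold change of -1.08, where 19.9% of all genes tested were lower. The matrix protease gene *Lon* had 179, 225 and 223 CPM in controls and 94.8, 97.5 and 86.3 CPM after RU486 (log2 fold change -1.17). *CG3499*, the inner membrane protease YME1L, went from 193, 244 and 229 CPM to 85.6, 85.7 and 80.3 CPM (-1.40). The smallest change was that of *CG9240* (-0.35, adjusted p = 0.0497). The mitochondrial ribosomal protein genes, listed for comparison, were lower in 66 of 71 cases, with a median of -1.01.

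Genes of folding outside mitochondria and of stress responses were also read, in the same comparison in which 19.9% of all genes tested were lower and 12.6% higher. Of 8 subunits of the cytosolic chaperonin TRiC, which does for cytosolic proteins what Hsp60 does in the matrix, 1 was lower (*CG7033*, -0.38) and 0 higher, with a median of -0.0015. Among the cytosolic and endoplasmic reticulum counterparts of *Hsc70-5* and *Trap1*, *Hsp83*, the cytosolic Hsp90, was lower, from 1761, 1631 and 1823 CPM to 963, 1144 and 1023 CPM (-0.74, adjusted p = 0.00369 in edgeR). The paper reports the opposite direction by quantitative RT-PCR in muscle of this stock, with *Hsp83* induced by RU486. The reason for this difference was not tested. *Hsc70-4*, *Hsc70-3* and *Gp93* were not called, at 0.19, 0.17 and -0.22. Of 7 genes that regulate mitochondrial and other stress responses or are their targets, 3 were lower and 0 higher. These were *ImpL2* (-0.79), *foxo* (-0.60) and *ubl* (-0.53). The stress transcription factor gene *crc*, the fly ATF4, was at -0.12 and *dve* at 0.11, both not called.

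**Figure D5:**
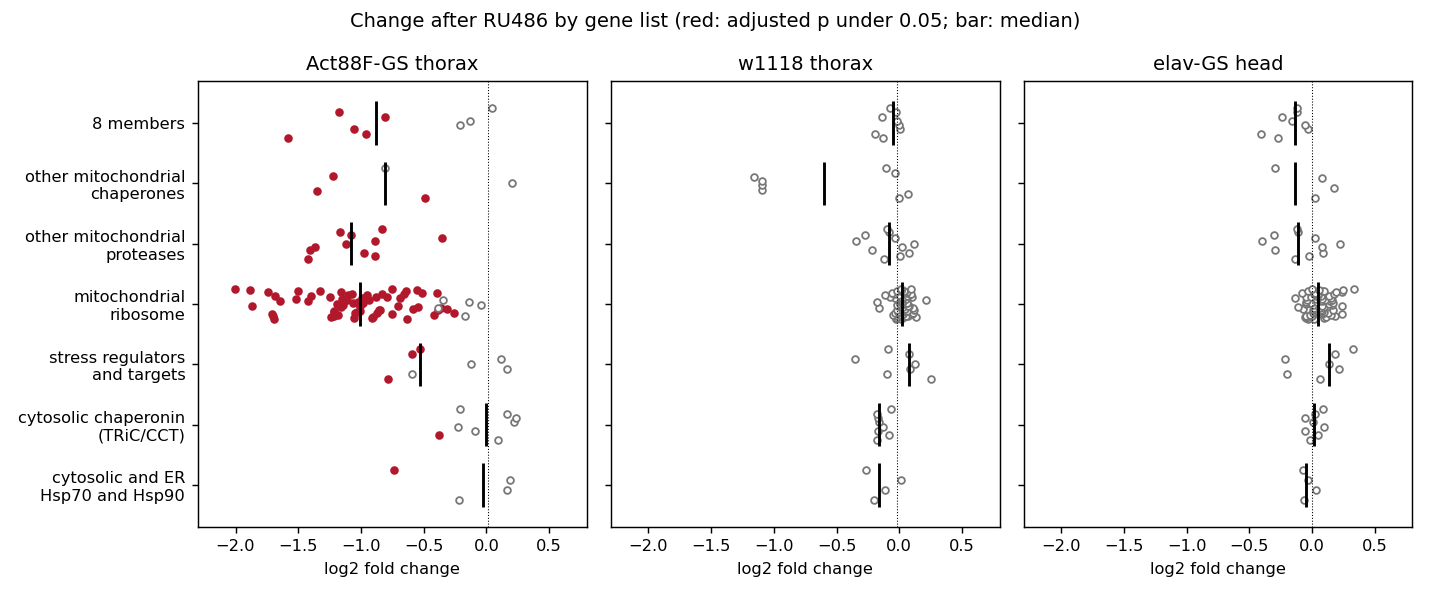
Log2 fold change after RU486 of every tested gene of 7 lists in the 3 stocks, with a bar at each list's median, red for an adjusted p under 0.05 in edgeR and a dotted line at the median of all genes tested. In *Act88F-GS-Gal4* thoraces all 11 other proteases are red, from -1.42 to -0.35, and no gene is red in the other panels. In heads *CG9920* (-5.86) and *Hsp60D* (-7.60) lie beyond the left edge of the axis.

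In *w1118* thoraces and in heads 0 genes of these lists were called by edgeR. In *w1118* thoraces an unadjusted p under 0.05 was reached by 1 of 11 proteases, 1 of 7 stress genes and 1 of 4 counterparts, and by 9.2% of all genes tested. In heads it was reached by 3 of 6 other chaperones, 1 of 11 proteases, 4 of 7 stress genes and 10 of 71 mitochondrial ribosomal protein genes, and by 25% of all genes tested. The median of the 11 proteases was -0.09 in *w1118* thoraces and -0.11 in heads.

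Across the 18 libraries, after the mean of each stock was removed, some members ran closely together. These correlations on log2 CPM describe 18 points that share libraries and the drug, and the widest changes among these points are those of *Act88F-GS-Gal4* thoraces. *Hsc70-5* and *Trap1* had Pearson's r = 0.98, *CG4538* and *Trap1* 0.95, and *Roe1* and *CG5045* 0.95. *Phb2* had r = 0.73 with *CG5045*, 0.72 with *Roe1*, 0.65 with the other prohibitin gene *l(2)37Cc* and 0.60 with *CG4538*, and *l(2)37Cc* with *Hsc70-5* was at -0.16. Of 9214 genes, those most like *CG4538* were *Lon* (0.99) and *CG3499* (0.98), both mitochondrial proteases, and *Paip2* (0.98). Those most like *Hsc70-5* were *CG40042* (0.99), *Las* (0.99) and *salm* (0.99), and those most like *Trap1* were *salm*, *CG2790* and *CG40042* (0.99 each). *CG5045* was most like *CG9410* (0.98), *ntc* (0.97) and *TSG101* (0.97), and *Roe1* most like *ntc* (0.98), *aret* (0.98) and *CG6404* (0.97). The genes nearest to *Hsp60* were *eIF2B-delta* (0.93), *PNUTS* (0.90) and *Cyp12c1* (0.90). The prohibitins had looser neighbours, with *nero* at 0.87 for *l(2)37Cc* and *fsd* at 0.88 for *Phb2*.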

How the data were processed

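Counts of reads per gene were analysed for 18 RNA-seq libraries, 3 in each of 6 groups of flies named by stock, tissue and treatment in the labels. The authors made stranded mRNA libraries, sequenced them on the Illumina HiSeq 2000, mapped reads to BDGP5.75 with StrongARM and counted them with HTSeq, and the deposited values are raw counts. The submitters' processing notes also name BWA and STAR. HTSeq's summary rows were left out, reads without a feature making up 6.53% to 15.2%. Each comparison was fitted on its own groups in R 4.3.3 with edgeR 4.0.16 (filterByExpr, TMM, robust quasi-likelihood test, Benjamini-Hochberg over all genes tested). Log2 CPM used a prior count of 1, and lengths and coordinates came from BDGP6.54, a later build. Alternatives used DESeq2 1.42.0, limma 3.58.1 (voom), other scalings and filters, a testis-marker covariate, all 18 samples in 1 fit, a replicate block and fits without each sample. The tests were also run on simulated counts with the same spread for every gene and no uneven tissue RNA. These data differ in both, so nothing is concluded from those runs.

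The members and lists were chosen with earlier results of these data known. Named genes are the 8 members, list genes with their values, and for each member the 3 genes of highest Pearson correlation with a mean log2 CPM of at least 1. Replicate pairs differed by more than counting error (chi-square per degree of freedom 10.7 to 424.9). The study describes its experiments as done in biological triplicate, with flies or batches of flies or their tissues as the unit, but the labels do not say what each library was made from, so p-values measure the spread between these samples. Same-numbered RU486 and control samples deviated together in *w1118* thoraces (correlations across genes 0.603, 0.323 and 0.511), a pairing taken from the numbers in the labels. RU486 replicate 2 was closer to control replicate 3 (0.482) than to control replicate 2, so the numbers did not give its nearest control.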

Additional observations from a re-analysis of the deposited data

Results flagged for a closer look

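The change after RU486 differed between stocks for 5 of the 8 genes, by a test of the difference itself in edgeR (change in *Act88F-GS-Gal4* thoraces minus change in the other stock, Benjamini-Hochberg over all genes tested). Of all genes tested, 11.9% had a lower change than in *w1118* thoraces and 17.3% a lower change than in heads. Against *w1118* thoraces the difference in log2 fold change was -1.08 for *Hsc70-5*, -1.16 for *Trap1*, -0.68 for *Roe1*, -1.46 for *CG4538* and -0.78 for *CG5045*. Against *elav-GS-Gal4* heads it was -1.05, -1.08, -0.59, -1.34 and -0.58 in the same order. Against heads, the call of *CG5045* was lost in 9 of 12 fits without 1 library (adjusted p 0.0506 to 0.0781), and those of *CG5045* and *Roe1* with total counts and with the upper quartile, which left 3 members lower. In *Act88F-GS-Gal4* thoraces all 3 RU486 samples lay below all 3 controls for each of the 5 genes, as for 27.4% of all genes tested there. The stock cannot be told apart from the run or, for heads, the tissue. No group had more than 3 samples, so single samples were not tested as outliers.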

How the results depend on the processing

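In *Act88F-GS-Gal4* thoraces 5 members were lower and 0 higher in every alternative except the per-gene unequal-variance test, where *CG4538* was not called (adjusted p = 0.076). With libraries scaled by total counts, the median log2 fold change of all genes there moved from 0.010 to 0.18 and the split of calls from 2112 lower and 1332 higher to 1264 and 2631. *Hsc70-5* was then at -0.88 and *CG4538* at -1.40, and *Phb2* changed sign without a call. With each sample left out in turn, members called lower were 5 in *Act88F-GS-Gal4* thoraces, 0 in *w1118* thoraces and 0 to 1 in heads, where *CG5045* passed without control replicate 3 (-0.53, adjusted p = 0.0475). With all 18 samples in 1 fit, 2 members were lower in heads, *Phb2* (adjusted p = 0.0349) and *CG5045* (adjusted p = 0.0189), with 2676 genes lower and 682 higher over all, where the fit of heads alone gave 83 and 533 and DESeq2 870 and 1032.

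For the difference from *w1118* thoraces 5 members were lower and 0 higher in every alternative. For the difference from heads, 3 members were lower and 1, *l(2)37Cc*, was higher with total counts and with the upper quartile, DESeq2 called 5 lower and 1 higher, and leaving out samples gave 4 to 5 lower. Total counts moved the split of all genes there from 1974 lower and 1284 higher to 1243 and 2723, and for the difference from *w1118* from 1545 and 559 to 851 and 1353.

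Control levels depended most on scaling. With total counts, 2 members were lower and 2 higher in *Act88F-GS-Gal4* than in *w1118* controls, and 3 were lower in head than in *Act88F-GS-Gal4* controls. Against *w1118* controls, 7 members were lower in heads with the upper quartile, and 0 were higher without the filter on low counts or without head control replicate 3. Left-out samples gave 3 to 4 members higher and 1 lower for *Act88F-GS-Gal4* against *w1118*, 4 to 6 lower and 0 to 1 higher for heads against *w1118*, and 4 to 7 lower for heads against *Act88F-GS-Gal4*. Over all genes, the split of calls with total counts went from 4876 lower and 3020 higher to 6536 and 1773 (*Act88F-GS-Gal4* against *w1118*) and from 3195 and 3852 to 2255 and 5205 (heads against *Act88F-GS-Gal4*), and with the upper quartile from 2411 and 4283 to 3280 and 3107 (heads against *w1118*). The cause of these shifts was not tested.

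With the replicate number as a block, the numbers of members called were 5 lower in *Act88F-GS-Gal4* thoraces and 0 in the other 2 stocks, 5 lower in both differences, and for control levels 1 lower and 4 higher, 4 lower and 1 higher, and 6 lower, so the block changed no call of the members. Over all genes it moved the calls in *Act88F-GS-Gal4* thoraces to 1585 lower and 877 higher, and in heads from 83 and 533 to 19 and 149. Same-numbered samples did not deviate together in *Act88F-GS-Gal4* thoraces (correlations -0.184, 0.041 and -0.156) or heads (0.148, -0.175 and -0.051), where the samples share only a number.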

Other observations

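The paralogues *Hsp60B*, *Hsp60C* and *Hsp60D*, and *CG9920*, a relative of the co-chaperonin gene *CG11267*, were read in the libraries with testis RNA. In heads *Hsp60C* had 218.9, 55.0 and 0.10 CPM in control replicates 1, 2 and 3 and at most 0.11 CPM after RU486, and *Hsp60B* had 148, 35.7 and 0.03 CPM in the same controls. In *w1118* thoraces *Hsp60C* had 98.5, 175 and 200.4 CPM in controls and 4.25, 160.1 and 57.5 CPM after RU486. In *Act88F-GS-Gal4* thoraces *Hsp60B*, *Hsp60C* and *Hsp60D* stayed at or below 0.063 CPM. *CG9920* had 121, 30.02 and 0.47 CPM in the 3 head controls. Reads without a unique alignment were set apart by the counting. *Hsp60* itself had 335, 356 and 354 CPM in the same controls, scaled within the stock. With all 18 libraries scaled together it had 107, 134 and 147 CPM per kilobase of exon. Whether reads shared between *Hsp60* and its paralogues bear on these levels was not tested.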
